A study of Homo sapiens with 6 samples.

Results

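The genes described here are 63 expressed genes whose level fell at least 3-fold when 22Rv1-ABHD5 cells were grown with doxycycline (Dox), out of 27470 genes in the count table. They were chosen from CPM, the reads of a gene per 1000000 reads counted on genes in that library. A gene had to reach 20 reads in each library without Dox, its mean CPM with Dox had to lie more than 3-fold below the mean without Dox, and its highest library with Dox had to lie below its lowest library without Dox. Of 10204 genes with enough reads, 74 met these conditions, which is 0.725%, and 11 of them (6 metallothionein genes, A1CF, FADS1, SFN, STEAP4 and THAP11) are left out here by name. Among the same 10204 genes, a mean more than 3 times higher with no overlap was found for 73, or 0.715%. This is not a full mirror of the rule. The demand of 20 reads stayed on the libraries without Dox, so genes that rose from lower counts were not counted. Since the fall itself chose the members, the values below are a description of these libraries and no test of the fall is given.

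22Rv1 is a human castration-resistant prostate cancer line. The 22Rv1-ABHD5 cells were made with the lentiviral vector pInducer20, from which Dox switches on ABHD5, and were selected with G418. They were cultured for 48 h in the absence (3 libraries) or presence (3 libraries) of Dox, and RNA was profiled by 3′ mRNA sequencing, in which reads come from the end of the transcript next to the poly(A) tail. The control libraries are of cells that carry the same transgene, as the series' design text describes it. Parent 22Rv1 cells with Dox were not analysed here, so that effects of Dox and of ABHD5 cannot be told apart. The labels do not say whether libraries of one condition came from separate cultures, so spreads and p-values cover the spread between these libraries, which may be technical.

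ABHD5 is the co-activator of adipose triglyceride lipase, the enzyme that takes the first step in breaking down stored triglyceride. Prostate luminal cells are secretory cells whose differentiation program is run largely by androgens together with factors such as FOXA1 and HOXB13, and kallikrein proteases are its classical secreted products. Prostate cancer lines also express genes of glandular epithelia elsewhere in the body, such as mucin glycosyltransferases and the secretory protein AGR2.

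ABHD5 itself was counted at 60.9, 55.1 and 60.1 CPM in replicates 1, 2 and 3 without Dox and at 129.8, 136 and 96 CPM with Dox (log2 fold change 0.91, standard error 0.15, adjusted p = 0.000198 by the quasi-likelihood test of edgeR, adjusted by Benjamini-Hochberg over 12233 genes), so every library with Dox lay above every library without it. The libraries held 3394672 to 7271771 reads on genes. A gene at 3 reads, taken as the limit of detection and covering counting error only, would stand at 0.413 to 0.884 CPM. All 7 prostate luminal markers reported here (KLK3, KLK2, FOXA1, HOXB13, TMPRSS2, KRT8 and KRT18, of which KLK2 is a member) reached 1 CPM, and their summed level was 676 to 720.3 CPM without Dox and 529 to 672 CPM with Dox. No marker of basal cells (4 genes, up to 0.752 CPM in sum) or endothelial cells (4 genes, up to 0.295 CPM) reached 1 CPM. Of 5 leukocyte markers 1 reached 1 CPM, with a sum of 2.004 to 4.12 CPM without Dox and 4.13 to 5.20 CPM with Dox, and of 6 fibroblast markers 3 did, with a sum of 4.71 to 9.02 CPM without Dox and 6.36 to 10.5 CPM with Dox. Their part in the results below was not tested. KRT5 and TP63, which define basal cells, had at most 1 read in a library. In RNA from a whole culture, fewer cells of a type and less RNA per cell cannot be told apart.

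The 63 members fell by 3.05-fold to 17.4-fold, with a median of 4.22-fold. Of these, 5 fell more than 10-fold, 22 more than 5-fold and 29 less than 4-fold. The median member kept 23.4%, 21.8% and 22.7% of its mean level without Dox in replicates 1, 2 and 3 with Dox, whereas the median of the other genes with enough reads stood at 105.9%, 105.3% and 107.9%. In sum the members took 3965, 3986 and 4042 CPM without Dox and 908, 849 and 847 CPM with Dox. That no library with Dox overlapped those without was set by the rule. Between the lowest library without Dox and the highest with Dox there was a gap of at least 1.68-fold (ATOH8), with a median of 2.98-fold, and it reached 2-fold in 55 members.

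Mean levels of the members without Dox ranged from 5.84 to 734 CPM with a median of 26.7 CPM, against a median of 40.7 CPM for all genes with enough reads. Counts behind the level with Dox were therefore small for many members. In 24 of them at least 1 library with Dox held fewer than 10 reads, and in 9 it held 3 or fewer. The spread between libraries with Dox was wider for the members than for other genes, with a median SD of log2(CPM + 1) of 0.251 against 0.181. Without Dox these medians were 0.180 and 0.160. At the edge of the rule, GALM fell 3.06-fold, LOC100130899 3.05-fold and ANG 3.05-fold. Just outside it, among genes not barred by name, AKR1C3 stood 2.97-fold, NR5A2 2.97-fold and EP300-AS1 2.95-fold lower.

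**Figure D1:**
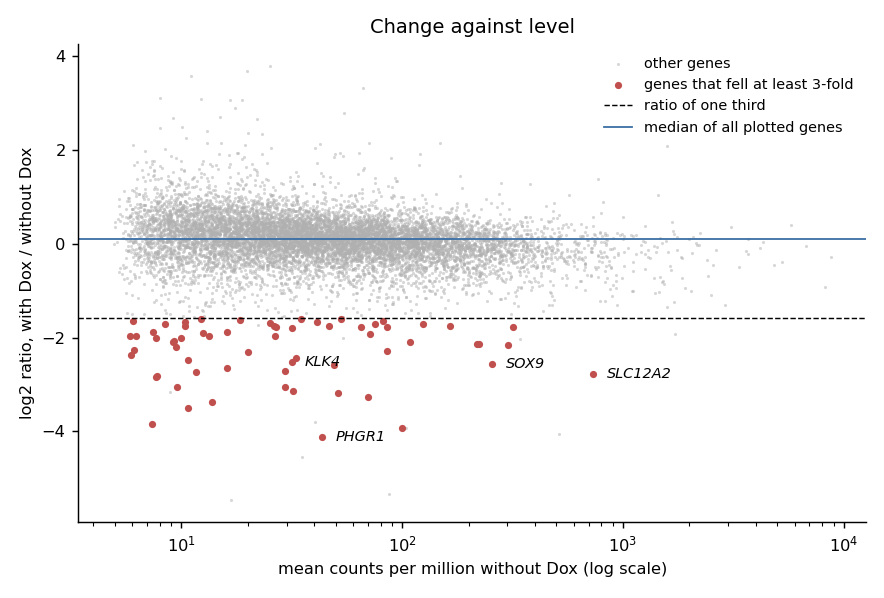
Each point is 1 of the genes with at least 20 reads in each library without Dox (x axis, mean CPM without Dox on a log scale; y axis, log2 of the ratio of mean CPM with Dox to that without Dox; 3 libraries each). Red points are the 63 members, which lie below the dashed line at a 3-fold fall across levels from 5.84 to 734 CPM, and grey points below that line are genes left out by name; the blue line is the median of all plotted genes.

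**Figure D2:**
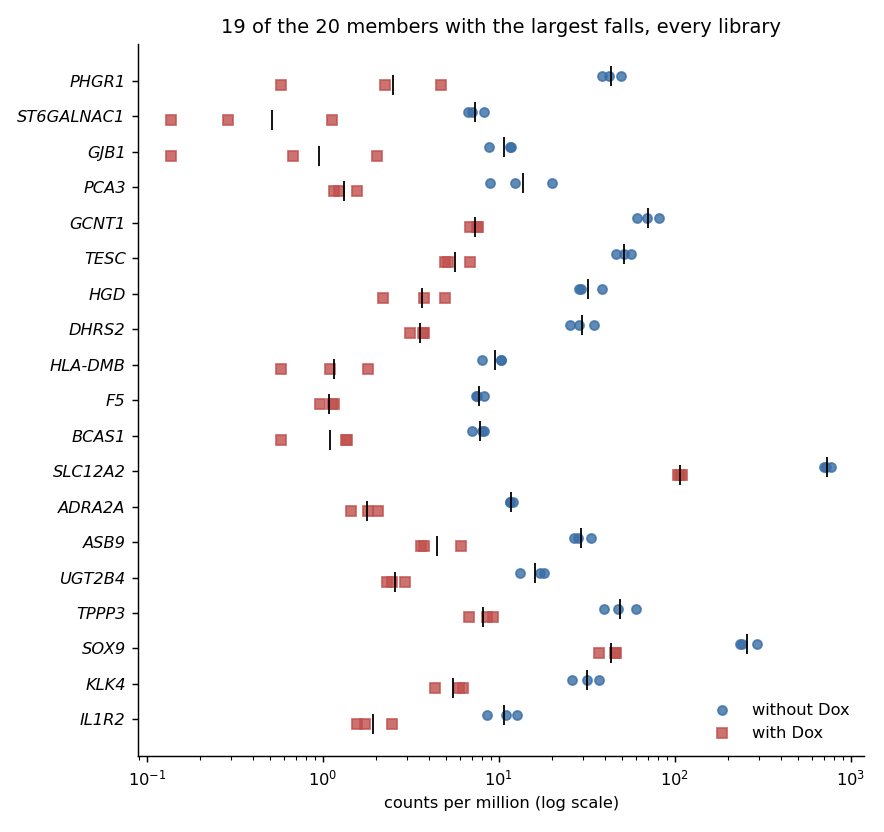
CPM on a log scale in each library for 19 of the 20 members with the largest falls (blue circles, 3 libraries without Dox; red squares, 3 with Dox; black ticks, means). In PHGR1, ST6GALNAC1 and GJB1 the red squares spread widely at low counts, whereas those of SLC12A2 and GCNT1 nearly coincide.

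The stretches of DNA before the starts of the members were read from the RefSeq promoter table (GRCh38.p14, 250 bases before to 50 bases after each start), to see what the members share beyond the rule. The table held 62 promoters for 40 of the 63 members. Among those not matched were BCAS1, C1orf21, CHRNA2, GALNT18, HGD, HSD11B2, KLK1, KLKP1, LOC100130899, LRRC36, PHGR1, PLA2G3, PPP1R1B, RHEBL1, SCARNA22, SNORA79, SOX9, ST6GALNAC1, TESC, TPPP3 and UGT2B4. The median member promoter held 52.5% G and C (range 33.67% to 83.67%), against 65% for 12135 promoters of genes with enough reads and 58.67% for all 35116 promoters. Members with several listed starts weigh on this value, and with only the first listed start of each gene the medians were 59.17% for the members and 65.67% for genes with enough reads. The GC box GGGCGG, searched like every motif on both strands, occurred in 25 of 62 member promoters (40.3%), in 67.8% of the promoters of genes with enough reads and in 45.0% of all promoters. With only the first listed start of each gene its shares were 55% for the members and 72.5% for genes with enough reads. The TATA box TATAAA occurred in 6 member promoters (9.68%, against 5.76% and 11.5%) and the androgen response half-site AGAACA in 12 (19.4%, against 9.53% and 14.8%). With the first listed starts these were 10% against 4.85% and 15% against 8.38%. For these 3 motifs the share over the 62 member promoters lay nearer to that of all promoters than to that of genes with enough reads. The AGAACA matches lay in promoters of ESRRG, FAM177B, CFC1, HLA-DMB, FUT4, TSPAN8, ANG and STXBP6, and not in those of KLK2 or KLK4. Within the 250 bases before the start alone, AGAACA occurred in 12.9% of member promoters, against 7.92% and 12.4%.

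Of the 6 TATAAA matches, 4 lay 29 or 30 bases before the start, in IL1R2, DDIT4L, ADRA2A and DHRS2. KLK2 held the letters on the opposite strand 34 bases before its start and FAM177B 61 bases before. The 60 bases before the start of those 4 members are shown because they place this motif at the same distance in genes of unlike function, with TATAAA and GGGCGG in capitals. They are DHRS2 (chr14:23630055-23630114, plus strand), DDIT4L (chr4:100190469-100190528, minus strand), ADRA2A (chr10:111076969-111077028, plus strand) and IL1R2 (chr2:101991900-101991959, plus strand), each written 5′ to 3′ on the strand of the gene.
DHRS2: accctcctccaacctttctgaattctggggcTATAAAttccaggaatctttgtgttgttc
DDIT4L: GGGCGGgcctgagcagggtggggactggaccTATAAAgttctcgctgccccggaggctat
ADRA2A: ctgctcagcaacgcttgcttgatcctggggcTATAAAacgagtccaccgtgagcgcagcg
IL1R2: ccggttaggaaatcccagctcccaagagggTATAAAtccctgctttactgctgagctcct

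The 120 bases before 3 further starts show the contrast in GC boxes among members. SLC12A2 (chr5:128083646-128083765, plus strand) held 3 matches to GGGCGG, 1 of them on the opposite strand, and PRUNE2 (chr9:76906115-76906234, minus strand) held 2, whereas the PCA3 start in the table (chr9:76764316-76764435, plus strand), which lies inside PRUNE2, held neither motif. Capitals again mark TATAAA and GGGCGG on either strand.
SLC12A2: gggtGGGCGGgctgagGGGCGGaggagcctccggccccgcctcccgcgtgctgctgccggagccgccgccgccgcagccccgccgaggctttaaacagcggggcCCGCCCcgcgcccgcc
PRUNE2: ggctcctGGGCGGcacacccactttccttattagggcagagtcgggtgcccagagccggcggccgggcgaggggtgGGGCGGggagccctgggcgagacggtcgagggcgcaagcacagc
PCA3: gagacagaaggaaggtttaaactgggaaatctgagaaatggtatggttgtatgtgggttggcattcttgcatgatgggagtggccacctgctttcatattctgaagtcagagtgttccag
Other motifs were searched in the same way. CCAAT occurred in 37.1% of member promoters against 36.0% of promoters of genes with enough reads, CACGTG in 6.45% against 9.69%, TGCNCNC in 59.7% against 62.7%, TTTGAA in 12.9% against 10.2%, TGATGNAA in 4.84% against 1.92%, TGANTCA in 4.84% against 4.49% and TGACGTCA in 1.61% against 2.97%. TCACNCCAC and TTTNGCGC had no match among 62 promoters and occurred in 1.06% and 2.79% of promoters of genes with enough reads. The exact 95% interval for no match among 62 reaches 5.78%. It is too narrow, since the promoters belong to 40 members and some of them overlap. With only the first listed start of each gene, TGCNCNC stood at 55% against 64.0%, TTTGAA at 17.5% against 9.44% and TGATGNAA at 5% against 1.57%. A match or its absence says only whether these letters stand in this window.

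Grouped by role, the members spread over secretory, metabolic, signalling and junctional genes, with group medians between 3.44-fold and 5.57-fold. Groups were formed after the members were seen. Of the 18 pathway lists examined, 5 members were on one, among them KLK2, KLK4 and CHRNA2 on that of androgen target genes, and 58 were on none. The lists with the largest shares of genes lower with Dox, those of the G2/M phases of the cell cycle (49 of 54 tested, median log2 fold change -0.83, edgeR), of S phase (32 of 42, -0.70) and of sterol synthesis and uptake (18 of 26, -0.54), held no member. Over all genes 13.7% were lower. A gene of the sterol list that fell just short of 3-fold was also barred from the set by name. The plot of levels left with Dox shows that ranges of the groups overlap.

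**Figure D3:**
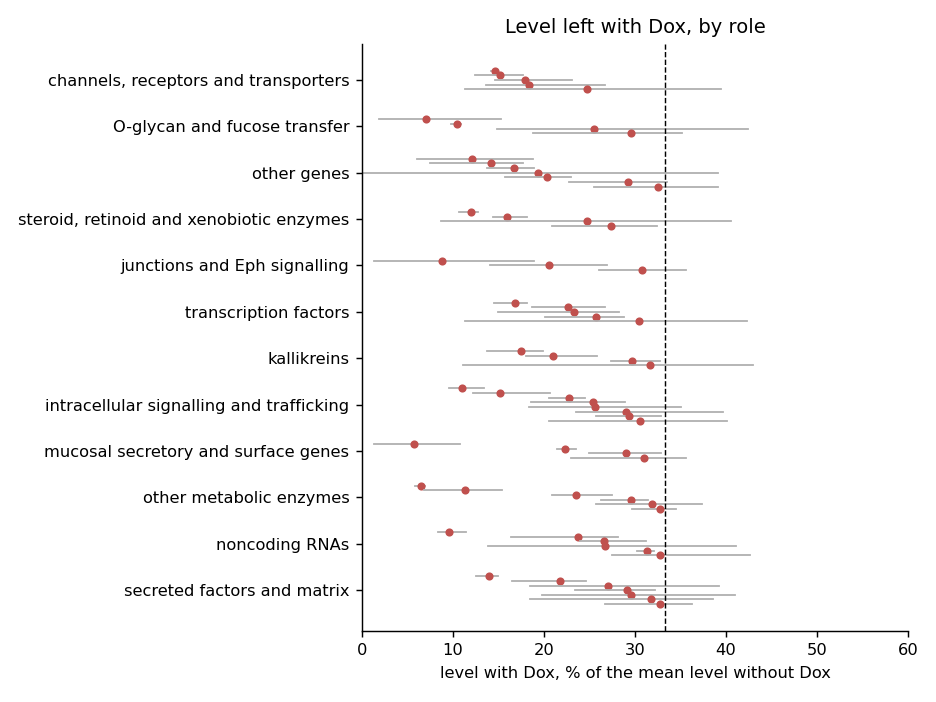
Level with Dox as percent of the mean level without Dox for each of the 63 members, by role and ordered by the median fold of the group (red points, ratio of the means over 3 libraries; grey lines, lowest to highest library with Dox). All points lie left of the dashed line at a 3-fold fall, which the rule set, and single libraries of low-count members reach past it.

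The kallikrein members and CHRNA2 fell by 3.16-fold to 5.74-fold. KLK4, a serine protease secreted by prostate epithelium, stood at 37.1, 31.8 and 25.9 CPM in replicates 1, 2 and 3 without Dox and 6.28, 4.33 and 5.91 CPM with Dox, a fall of 5.74-fold (31.6 ± 5.62 to 5.51 ± 1.03 CPM (SD, n = 3)). KLK2, which encodes a relative of prostate-specific antigen, was lower and more variable, at 8.78, 11.5 and 11 CPM without Dox and 4.48, 1.16 and 4.26 CPM with Dox (3.16-fold). Its replicate 2 with Dox rested on 4 reads. The tissue kallikrein KLK1 fell 3.37-fold, from 41.9, 51.8 and 45.8 CPM to 15.2, 12.7 and 13.5 CPM, and the pseudogene transcript KLKP1 fell 4.77-fold, from 7.27, 6.48 and 4.51 CPM to 1.57, 1.16 and 1.10 CPM. CHRNA2, a nicotinic acetylcholine receptor subunit that is on the androgen target list, stood at 32.3, 35.3 and 31.2 CPM without Dox and 4.48, 4.91 and 8.80 CPM with Dox, a fall of 5.44-fold, with replicate 3 the highest of the libraries with Dox.

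KLK3, which encodes prostate-specific antigen, was not a member. It was counted at 12.3, 14.7 and 23.5 CPM without Dox and 28.5, 11 and 7.15 CPM with Dox (log2 fold change -0.30, standard error 0.38, adjusted p = 0.611, edgeR), so that 1 library with Dox was above and 2 were below all libraries without Dox. Without replicate 1 with Dox its log2 fold change was -1.10 with an adjusted p of 0.0245. Over the rest of the androgen target list, 21 genes that are not members were tested. Of these, 12 were lower (57.1%, against 13.7% of all 12233 genes) and 1 was higher (against 11.9%), with a median log2 fold change of -0.78 against 0.02 for all genes. The split over all genes, 1674 lower and 1451 higher with TMM scaling, was 1136 and 2179 with scaling by library totals. FKBP5, a co-chaperone of steroid receptors, fell from 1592, 1555 and 1591 CPM to 651, 662 and 533 CPM (log2 fold change -1.48, standard error 0.13, adjusted p = 2.84e-07, edgeR). SLC45A3, a prostate transporter gene also known as prostein, fell from 27.8, 28.6 and 31.6 CPM to 13.7, 8.67 and 7.98 CPM (log2 fold change -1.67, standard error 0.22, adjusted p = 2.23e-05, edgeR). Others that fell were ACSL3, CENPN, ELL2, PMEPA1, TMPRSS2, ZBTB10, MPHOSPH9, STEAP2 and C1orf116, with log2 fold changes from -1.24 to -0.58. Calls of all 12 held in the 11 alternatives tried, while that of HERC3, the gene that rose (log2 fold change 0.63), was lost when 3 of the libraries were left out in turn.

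The other luminal markers did not move as one. TMPRSS2, a surface protease, and KRT18, a keratin of simple epithelia, were lower with log2 fold changes of -1.06 and -0.57 (adjusted p = 0.00505 and 0.00189, edgeR). KRT8, the partner keratin of KRT18, and the transcription factors FOXA1 and HOXB13 gave -0.30, -0.04 and -0.07 (adjusted p = 0.201, 0.878 and 0.74, edgeR), which did not pass the threshold.

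**Figure D4:**
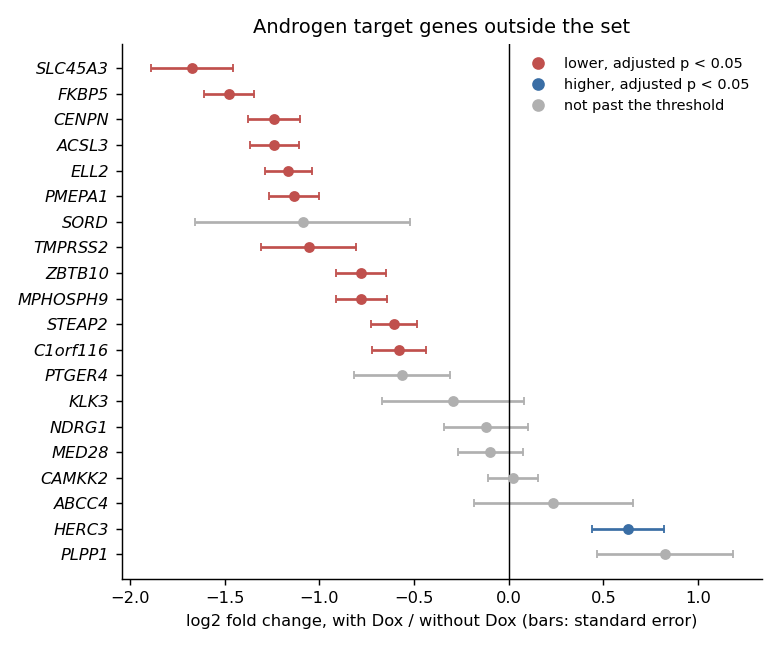
Log2 fold change with its standard error (edgeR) for 20 androgen target genes of the list that were tested and are not members, in 3 libraries with Dox against 3 without. The 11 red points were lower, the blue point, HERC3, was higher and the grey points, KLK3 among them, did not pass an adjusted p of 0.05.

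SOX9, ESRRG, ARNTL2 and ATOH8 were members that encode transcription factors. SOX9, a factor of epithelial progenitors and of chondrocytes, stood at 294, 240.1 and 234 CPM without Dox and 45.7, 37 and 46.5 CPM with Dox and fell 5.94-fold (256 ± 33.1 to 43.1 ± 5.28 CPM (SD, n = 3)). Its lowest library without Dox was 5.03-fold above its highest with Dox. ESRRG, an orphan nuclear receptor, fell 4.30-fold, ARNTL2 (BMAL2), a partner of the CLOCK protein, 3.89-fold and ATOH8, a basic helix-loop-helix factor, 3.29-fold. ATOH8 was at 8.52, 10.9 and 6.01 CPM without Dox and 3.59, 3.18 and 0.963 CPM with Dox, so that its libraries nearly met. Of 4 other SOX genes tested none passed the threshold (SOX4, SOX5, SOX12 and SOX13).

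Enzymes that build sugar chains on secreted and surface proteins numbered 4 members with a median fall of 5.57-fold. ST6GALNAC1, the sialyltransferase that makes the sialyl-Tn antigen on mucins, stood at 8.27, 7.07 and 6.68 CPM without Dox and 1.12, 0.289 and 0.138 CPM with Dox (14.2-fold). The level with Dox rested on 5, 1 and 1 reads, and the ratio of the pooled counts had an exact 95% interval of 7.36 to 40.2-fold. That interval covers counting error only and not the spread between libraries. The log2 ratio of ST6GALNAC1 was -3.83, and -5.11 without replicate 1 with Dox. GCNT1, which forms the branched core 2 structure of O-glycans, was better covered, at 80.7, 61 and 69.3 CPM against 7.62, 7.51 and 6.88 CPM, a fall of 9.59-fold. FUT4, a fucosyltransferase of Lewis x synthesis, fell 3.92-fold and GALNT18, of the family that starts O-glycans, 3.39-fold. The family neighbours did not move as one. Of 8 other GALNT genes tested 2 were lower (GALNT1 and GALNT7) and 2 higher, GALNT10 with a log2 fold change of 1.77 and GALNT16 with 3.32 (adjusted p = 8.37e-07 and 0.000449, edgeR). Among 4 other FUT genes FUT8 was higher (log2 fold change 0.77), and among 3 other ST6GALNAC genes ST6GALNAC6 was higher (0.50, a call lost without 4 of the libraries in turn).

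Metabolic enzymes were led by HGD in size of fall among those reported here. HGD, an enzyme of tyrosine breakdown, fell 8.85-fold, from 29.1, 28.6 and 38.7 CPM to 4.93, 3.76 and 2.20 CPM. PLA2G3, a secreted phospholipase A2, stood at 104, 126 and 95.4 CPM against 22.6, 24 and 29.8 CPM (4.26-fold) and NT5DC3, of the 5′-nucleotidase domain family, at 167, 154 and 173 CPM against 43.3, 51.1 and 51.7 CPM (3.38-fold). PBLD fell 3.14-fold and GALM, galactose mutarotase, 3.06-fold. Over the list of targets of the peroxisome proliferator-activated receptors and of fatty acid oxidation, 21 genes that are not members were tested. Of these 2 were lower (CPT1A, log2 fold change -0.61, and ECH1, -0.61) and 2 higher (9.52% each), PLIN2 among them (1.86), with an adjusted p under 0.05 by edgeR in the 11 alternatives, and the median was 0.09 against 0.02 for all genes. Both shares were below those of all genes, 13.7% lower and 11.9% higher. In other phospholipase A2 genes 3 of 9 tested were lower, of which PLA2G16 held in all 11 alternatives (log2 fold change -0.99), and none was higher, beside the same shares of all genes.

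Enzymes that convert steroids, retinoids and foreign compounds included 4 members. DHRS2, a short-chain dehydrogenase, stood at 28.6, 25.3 and 34.6 CPM without Dox and 3.14, 3.76 and 3.71 CPM with Dox, a fall of 8.34-fold. UGT2B4, a UDP-glucuronosyltransferase, stood at 17, 13.3 and 18 CPM against 2.92, 2.31 and 2.48 CPM (6.28-fold). In both genes the libraries with Dox were closer together than those without Dox (SD of log2(CPM + 1) 0.112 against 0.219 for DHRS2 and 0.124 against 0.222 for UGT2B4). The libraries with Dox held only 14, 13 and 27 reads of DHRS2 and 13, 8 and 18 of UGT2B4. The added 1 also narrows this measure at low CPM. HSD11B2, which turns cortisol into inactive cortisone, fell 3.66-fold, and ALDH1A1, a retinaldehyde dehydrogenase, 4.05-fold. UGT2B11, the only other UGT2B gene tested, was also lower, at 2.76, 6.48 and 4.17 CPM against 0.448, 0.578 and 0.963 CPM (log2 fold change -2.70, standard error 0.50, adjusted p = 0.000617, edgeR). UGT2B genes are close copies of each other, and how reads that match several were counted is not given in the sources used here.

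Among mucosal and surface genes, PHGR1, named for its proline, histidine and glycine-rich product of the gut lining, had the largest ratio of mean CPM in the set. It was counted at 42.1, 49.2 and 38.7 CPM without Dox and 2.24, 0.578 and 4.68 CPM with Dox, 17.4-fold lower (43.4 ± 5.33 to 2.50 ± 2.06 CPM (SD, n = 3)). It was also the most variable member with Dox by the SD of log2(CPM + 1), at 0.926, and its lowest library held 2 reads. The added 1 narrows this measure for members at lower CPM. The ratio of its pooled counts was 14.0-fold (exact 95% interval 10.4 to 19.3-fold), below the pooled ratios of ST6GALNAC1 (15.7-fold) and GJB1 (14.9-fold), whose intervals contain it. These intervals cover counting error only and not the spread between libraries, which was wide for PHGR1. The log2 ratio of PHGR1 was -4.12, and -4.94 without replicate 3 with Dox and -3.65 without replicate 2 with Dox. TSPAN8, a tetraspanin of epithelial membranes, stood at 277, 271 and 358 CPM against 71.1, 65.9 and 64.6 CPM (4.49-fold). AGR2, a disulfide isomerase of secretory cells, fell 3.44-fold and DPP4, a surface peptidase, 3.23-fold. Of 12 other tetraspanins tested TSPAN1 and TSPAN13 were lower (log2 fold change -0.81 and -0.92) and TSPAN4 and TSPAN5 higher (0.61 and 0.75, calls lost without some of the libraries).

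Secreted and matrix genes held 7 members with smaller falls, from 3.05-fold to 7.15-fold. F5, coagulation factor V, stood at 8.27, 7.36 and 7.51 CPM without Dox and 1.12, 1.16 and 0.963 CPM with Dox. The basement membrane genes COL4A2 (collagen IV) and NID1 (nidogen) fell 4.59-fold and 3.15-fold, TIMP3, an inhibitor of metalloproteinases, 3.44-fold, SCUBE2, which helps release hedgehog ligands, 3.39-fold, CFC1, a Nodal co-receptor, 3.70-fold and ANG, angiogenin, 3.05-fold. CFC1 has a near-identical copy, CFC1B, so its reads are uncertain. TIMP3 went against its relatives, since TIMP1 rose from 82.7, 108 and 78.3 CPM to 197, 198 and 227 CPM (log2 fold change 1.09, standard error 0.14, adjusted p = 1.98e-05, edgeR) and TIMP2 gave a log2 fold change of 1.35 (adjusted p = 0.00565).

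Of genes of cell contacts, GJB1, the gap junction protein connexin 32, fell from 8.78, 11.8 and 11.5 CPM to 0.673, 2.02 and 0.138 CPM (11.3-fold, exact 95% interval of the pooled ratio 8.07 to 30.5-fold). Its libraries with Dox held 3, 7 and 1 reads, and the interval covers counting error only. The log2 ratio of GJB1 was -3.50, and -4.72 without replicate 2 with Dox. CGN, the tight junction protein cingulin, was covered better and fell 3.26-fold, from 126, 116.1 and 132 CPM to 38.1, 32.4 and 44.3 CPM. EPHB3, an ephrin receptor that helps sort epithelial cells, fell 4.87-fold. In other Eph receptors none of 7 tested was lower and EPHA3 and EPHA7 were higher (log2 fold change 1.52 and 1.04, adjusted p = 0.00863 and 0.00321, edgeR). Over the fixed list of junction proteins and keratins, which held no member, 6 of 39 tested were lower (15.4%, against 13.7% of all genes) and 7 higher (17.9%, against 11.9%).

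Channels, receptors and transporters fell by 4.04-fold to 6.86-fold. SLC12A2, the sodium, potassium and chloride cotransporter of secretory epithelia (NKCC1), took the most reads of any member. It stood at 705, 726 and 771 CPM without Dox and 107, 110.1 and 104 CPM with Dox (734 ± 33.6 to 107 ± 3.07 CPM (SD, n = 3)), and its fall of 6.86-fold was among the most even, since its libraries with Dox differed by a few CPM. Of 5 other SLC12A genes tested none was lower, and SLC12A4, SLC12A7 and SLC12A9 were higher (log2 fold change 0.70, 0.71 and 0.53), though each of these 3 calls was lost without at least 1 library. ADRA2A, an alpha-2 adrenergic receptor, was at 12, 11.5 and 11.5 CPM against 1.79, 1.44 and 2.06 CPM (6.61-fold) and IL1R2, the interleukin-1 decoy receptor, at 8.52, 12.7 and 11 CPM against 1.57, 1.73 and 2.48 CPM (5.57-fold). SLC1A3, a glutamate transporter, fell 4.04-fold.

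Intracellular signalling and trafficking genes numbered 8. TESC, the calcium-binding protein tescalcin, stood at 56.4, 46.2 and 51.6 CPM without Dox and 5.16, 4.91 and 6.88 CPM with Dox (9.10-fold). ASB9, a substrate adaptor of a ubiquitin ligase, was at 28.1, 33.3 and 26.7 CPM against 3.59, 3.76 and 6.05 CPM (6.58-fold). PRUNE2, which carries a BNIP2 and Cdc42GAP homology domain, was at 215, 246 and 206 CPM against 51.4, 54.6 and 45.8 CPM (4.40-fold). In TESC and ASB9 replicate 3 was the highest of the libraries with Dox. STXBP6 (amisyn), which binds SNARE proteins, fell 3.93-fold, RHEBL1, a relative of the mTORC1 activator Rheb, 3.90-fold, PPP1R1B (DARPP-32), an inhibitor of protein phosphatase 1, 3.45-fold, DDIT4L, a relative of the mTORC1 inhibitor REDD1, 3.41-fold and HOMER2, a scaffold protein, 3.28-fold. RHEBL1 was counted at 25.6, 28.9 and 25.7 CPM without Dox and 6.28, 4.91 and 9.35 CPM with Dox, and DDIT4L at 95.8, 64.5 and 95.7 CPM and 28, 22 and 25 CPM. Replicate 2 was the lowest library without Dox in DDIT4L.

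The 7 members outside these groups were led by HLA-DMB, of the class II antigen loading machinery, which was at 10.3, 10.3 and 8.02 CPM without Dox and 1.79, 0.578 and 1.10 CPM with Dox (8.24-fold). BCAS1, named for its amplification in breast cancer, was at 8.02, 7.07 and 8.18 CPM against 1.35, 0.578 and 1.38 CPM (7.06-fold). C1orf21 was among the members with the most reads, at 319, 307 and 329 CPM against 107, 99.4 and 72.5 CPM (3.43-fold), and its replicate 3 with Dox was the lowest. TPPP3, a tubulin-binding protein, fell 6.0-fold, LRRC36 5.16-fold, FAM177B 4.93-fold and PIF1, a DNA helicase, 3.08-fold. Over 17 gene families of the members, 62 relatives that are not members were tested, of which 9 were lower (14.5%) and 14 higher (22.6%), beside 13.7% and 11.9% of all genes. Relatives that met the rule are members and were left out of these counts, which therefore do not show how widely the fall was shared within families. The share lower was close to that of all genes.

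Of the 6 noncoding RNAs outside the kallikreins, PCA3, a prostate-specific long noncoding RNA used as a urine marker of prostate cancer, fell most, from 20.1, 12.4 and 8.85 CPM to 1.57, 1.16 and 1.24 CPM (10.4-fold). Its libraries without Dox differed by more than 2-fold among themselves, whereas those with Dox rested on 4 to 9 reads. PART1, an androgen-regulated prostate transcript, was among the most even members at 40.6, 41.8 and 41.1 CPM against 13, 12.4 and 13.2 CPM (3.20-fold). NKILA, which binds NF-kB and its inhibitor, stood at 8.78, 9.13 and 9.85 CPM against 2.47, 2.60 and 1.51 CPM (4.22-fold). Of 12 other NF-kB pathway genes tested, NFKBIA and BCL3 were lower (log2 fold change -0.67 and -1.31, in all 11 alternatives) and none was higher. That is 16.7%, against 13.7% of all genes, and the median of the list was 0.03 against 0.02 for all genes. The small RNAs SCARNA22 and SNORA79 fell 3.77-fold and 3.75-fold, and LOC100130899 fell 3.05-fold. SCARNA22 varied widely without Dox, at 69.5, 99.3 and 45.3 CPM. SNORA79 was at 5.16, 1.73 and 3.16 CPM with Dox, and its replicate 2 rested on 6 reads. Both lie inside another gene on the same strand, so their reads cannot be told apart from those of that gene.

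Several members overlap another gene, and whether strand was used in counting is not given in the sources used here, so that reads of overlapping genes cannot be told apart. In all, 19 members overlapped a gene of the table. Of 8 partners that were tested and are not members, 6 were lower and none was higher, beside 13.7% and 11.9% of all genes. PMEPA1, opposite NKILA, went from 2056, 2112 and 1950.2 CPM to 1118, 996 and 915 CPM, PDE4D, opposite PART1, from 35.4, 23.6 and 33.2 CPM to 17.3, 14.7 and 14.6 CPM, and RNASE4, which overlaps ANG on the same strand, from 42.4, 38.6 and 54.9 CPM to 26.2, 21.7 and 25.7 CPM (log2 fold changes -1.13, -1.12 and -1.01, adjusted p = 5.61e-06, 0.000359 and 0.000291, edgeR). NSD2, which contains SCARNA22, gave -0.73, SNHG16, opposite ST6GALNAC1, -0.55 and HNRNPH3, opposite PBLD, -0.54, the last a call lost in 5 of 11 alternatives. These log2 fold changes were smaller in size than those of the members they overlap. The rule largely fixed this in advance, since a partner with enough reads that fell more than 3-fold would itself be a member. GTF2A1, which contains SNORA79, and SOX9-AS1 did not pass the threshold.

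By position, 10 members formed 12 pairs with starts within 500 kb of each other, in 3 places (hg38, GENCODE 44). On chromosome 9, GCNT1 (chr9:76419850-76651203, plus strand), PRUNE2 (chr9:76611376-76906114, minus strand) and PCA3 (chr9:76691980-76863307, plus strand) lie together, PRUNE2 overlapping the end of GCNT1 and containing PCA3, and no other gene of the table lies between them. They fell 9.59-fold, 4.40-fold and 10.4-fold. On chromosome 19, KLK1, KLK2, KLKP1 and KLK4 have their starts within 87.6 kb (chr19:50819146-50823787 to chr19:50906351-50911395), and KLK3, which lies between KLK1 and KLK2, did not pass the threshold. KLK15 also lies between KLK1 and KLK2 and was not among the genes tested. It was at 3.26, 1.18 and 2.34 CPM without Dox and 0.224, 0.289 and 0 CPM with Dox. The neighbours SHANK1 and CLEC11A gave log2 fold changes of -0.55 and -0.20 (adjusted p = 0.193 and 0.48, edgeR).

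On chromosome 16, LRRC36 (chr16:67326798-67385204), TPPP3 (chr16:67389809-67393518) and HSD11B2 (chr16:67430652-67437553) have their starts within 104 kb. LRRC36 was counted at 5.01, 7.36 and 5.34 CPM without Dox and 1.12, 2.31 and 0 CPM with Dox, TPPP3 at 39.4, 60.1 and 47.6 CPM and 8.52, 9.25 and 6.74 CPM, and HSD11B2 at 16, 18 and 14.4 CPM and 3.36, 4.62 and 5.23 CPM. LRRC36 had no read in replicate 3 with Dox, which allows up to 0.413 CPM. The log2 ratio of LRRC36 was -2.37, and -3.40 without replicate 2 with Dox. ZDHHC1, between TPPP3 and HSD11B2, gave a log2 fold change of -0.11 (adjusted p = 0.856, edgeR). Of the flanking genes TMEM208, FHOD1 and PLEKHG4 on the LRRC36 side were lower (log2 fold changes -0.61, -1.06 and -0.90, the last lost in 5 of 11 alternatives), and ATP6V0D1 and RIPOR1 on the other side gave 0.02 and 0.24 and did not pass.

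**Figure D5:**
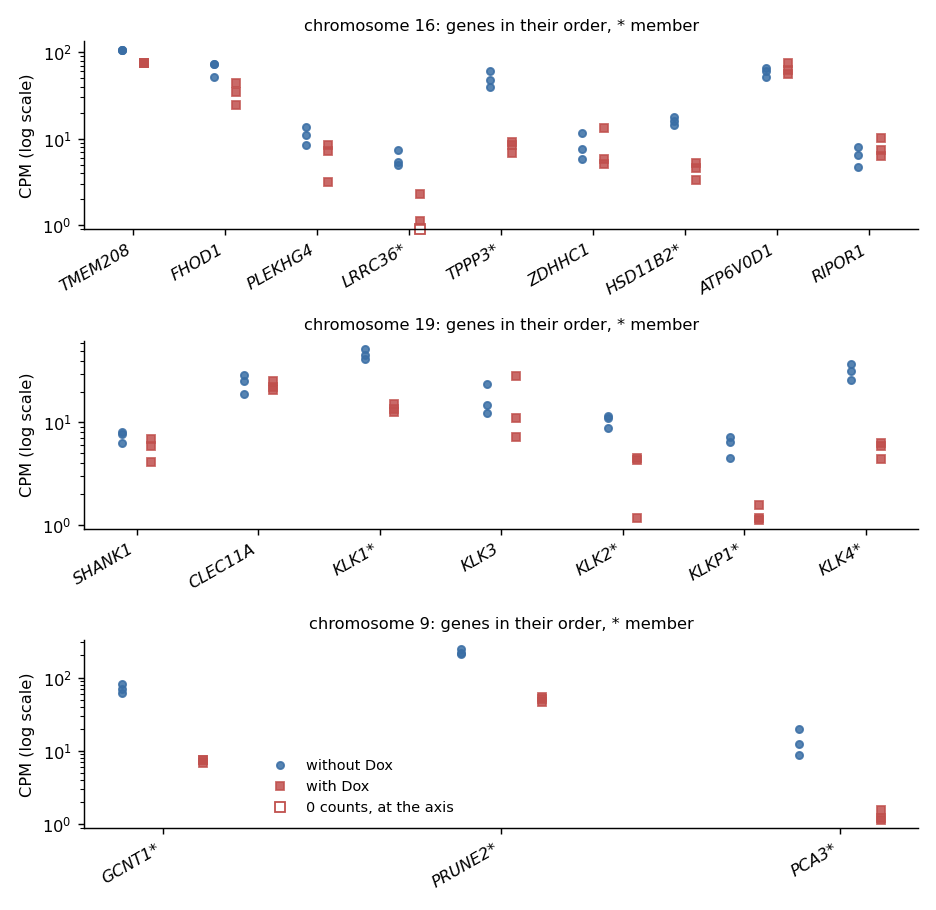
CPM on a log scale in each library (blue circles, 3 without Dox; red squares, 3 with Dox; the open square at the axis is a library with 0 reads) for the tested genes around the 3 places with neighbouring members, in genome order, members starred. Each starred gene has its 3 squares below its 3 circles, as the rule required, while for ZDHHC1 and KLK3 squares and circles overlap.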

How the data were processed

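The authors sequenced 3′ libraries, which the labels describe as prepared with the FWD version and the study's methods with the REV version of one kit, mapped reads to hg38 with STAR and deposited a table of raw counts, with 1 row per gene symbol and 1 column for each of 6 libraries. The submitters' processing notes also name CASAVA 1.8.2, FastQC, HTSeq and edgeR; the gene annotation and the strand setting are not given in the sources used here. The authors also deposited a normalized signal per library, used only as an alternative. Rows that name no gene (32.5% to 39.5% of reads on no gene, 3.05% to 3.37% ambiguous) were left out of library totals.

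The members, pathway lists and tests were chosen with earlier results of these data known. Roles and families were formed after the members were seen. Members were found on CPM of library totals. Other genes were tested with edgeR 4.0.16 (filterByExpr, TMM, glmQLFTest, adjusted by Benjamini-Hochberg with a threshold of 0.05, 3 libraries with Dox against 3 without) in R 4.3.3, which on simulated counts called 97% of 4-fold and 82% of 2-fold changes with 4.79% false calls. The simulation changed 100 of 12233 genes by each fold, as many up as down. Far more genes were called in the data, so it does not test the scaling used. Fold changes of members are ratios of mean CPM, and those of other genes come from edgeR. DESeq2 1.42.0 was an alternative. Genes were named by a rule: the 20 largest falls, the 10 highest levels, members on a list, within 500 kb of another member, of a shared family, next to the threshold or the 3 most variable, with relatives that are not members. Other members are named to account for the set. Values of a few genes are not reported here. Promoters were searched in Python 3.11.15. Depth was 3394672 to 7271771 counts per library.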

Additional observations from a re-analysis of the deposited data

How the results depend on the processing

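The set depended mainly on its own limits. With at least 50 reads instead of 20 it held 37 genes, with 10 reads 78, with a fall of 2-fold in place of 3-fold 238 and of 4-fold 34. It held 81 with TMM or DESeq2 size factors and 80 with the deposited normalized values, an alternative added after seeing the data, and these 3 sets contained all 63 members. Leaving out 1 library at a time gave 64 to 76 genes, which kept 57 to 61 of the members. The median log2 ratio of the members was -2.08, and -2.20 with TMM, -2.19 with DESeq2 size factors, -2.20 with the deposited normalized values and -2.17 to -2.01 with each library left out. On library totals the median gene with enough reads stood at a log2 ratio of 0.10 and with TMM at -0.02, so falls are smaller by about that shift on library totals. No member's ratio changed direction, which the rule had fixed in advance for each library left out. Of 567 values under the alternatives, 546 moved by less than the SD between the 3 libraries with Dox. Each alternative shares most of its data with the main value, so small moves were likely from the outset and are a description only.

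Over all genes, scaling by library totals gave 1136 lower and 2179 higher in place of 1674 and 1451 with TMM. DESeq2 gave 1554 and 1261, and each library left out in turn gave 953 to 1459 higher, the lowest without replicate 1 without Dox. The causes were not tested. The share of member promoters with a GC box was 55% with the first listed start of each gene, chosen after seeing the data, in place of 40.3%.

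Same-numbered libraries correlated in their deviations from the condition means with r of -0.01, 0.23 and 0.09. The main test did not pair the libraries, though these values do not settle whether they were paired. With a replicate block edgeR gave 1887 lower and 1650 higher genes, more than the 1674 and 1451 without it. In each same-numbered pair 35 genes fell at least 3-fold.

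Low counts limit 24 members that had fewer than 10 reads in a library with Dox. Their folds are known only within wide counting intervals, which leave out the spread between libraries.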
